A study of Mus musculus with 6 samples.

Results

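The calcium and sodium channel genes of the adult mouse hippocampus were examined in the RNA part of BALI-Multiome, a method in which light directs the ligation of DNA indexes onto the cDNA of a chosen tissue area. The genes were chosen by symbol alone, with no use of their levels: voltage-gated calcium channel genes (Cacn), voltage-gated sodium channel genes (Scn), ryanodine receptors (Ryr), inositol trisphosphate receptors (Itpr), the sodium leak channel Nalcn and TRP channels of the Trpc, Trpm and Trpv groups. Of the 7507 genes analysed, 40 (0.533%) carried such a symbol. Every gene analysed had been detected in these data, so members of these families without any detection are not among the 40. One of the 40, Trpc4ap, matches the pattern by name only and encodes a protein associated with a TRP channel, not a channel. The tissue was fresh frozen brain of adult mice with no genotype or treatment given, cut as coronal cryosections, and in each of 3 sections the granular layer of the dentate gyrus (DG) and the CA1 received their own 4-digit barcode. There are thus 2 libraries per section and 6 in all. The labels disagree on age, with 12 weeks among the characteristics and 8 to 12 months in the growth protocol. Nothing in the labels says whether the 3 sections came from separate animals, so the spread between them may be technical.

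Voltage-gated channels are built around a large pore-forming subunit, which senses the membrane potential and selects the ion, and smaller auxiliary subunits, which set its trafficking and gating. Sodium channel alpha subunits (Scn1a, Scn2a1, Scn3a, Scn8a) carry the rising phase of the action potential, and the calcium channel pore subunits (Cacna1 genes) couple depolarization to transmitter release, gene expression and firing pattern. Ryanodine and inositol trisphosphate receptors release calcium from the endoplasmic reticulum. Granule cells of DG and pyramidal cells of CA1 are both excitatory neurons with these systems, and the comparison asked whether the 2 areas differed in the RNA of these genes.

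Shared sequence bears on how fully the sodium channel genes can be counted. The deposited counts come from read 1, of 100 bases, and the RefSeq transcripts of GRCm38.p6, the assembly that mm10 is built on, were compared over windows of that length. Windows of 100 bases that also occur in another alpha subunit gene made up 2.90% of the Scn3a transcript, 1.96% of Scn9a, 1.55% of Scn2a1 and 1.23% of Scn1a, and none of Scn8a or Scn7a. The longest run shared by a pair was 188 bases, between Scn1a and Scn2a1. A read lying wholly in such a run matches more than 1 gene, and featureCounts at default options leaves multiply mapped reads uncounted. The counts of Scn1a, Scn2a1 and Scn3a can thus lack reads of those windows. Scn8a had no such window, by exact matches in 1 transcript of each alpha subunit gene analysed. Near matches and genes outside that group were not compared. In every other subfamily the longest run shared between members was 43 bases or fewer, with the 43 bases found among the Cacna1 genes.

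The libraries were shallow. After removal of the 1 that is added to every deposited count, the DG libraries held between 4572 and 17999 UMIs (unique molecular identifiers, each standing for 1 captured cDNA) and the CA1 libraries between 2844 and 9357, and the DG library was the deeper of the pair in every section. A count of 0 allows up to 3 UMIs, or between 0.0167% of the UMIs in the deepest library and 0.105% in the shallowest. Intervals and limits cover counting error only. The labelled areas could be checked only weakly. Of the DG granule cell markers, 5 of 11 were among the genes analysed, with 14 UMIs in DG and 5 in CA1, and the defining genes Prox1 and C1ql2 were not among them. The ratio of summed shares was 1.66 (95% interval 0.563 to 5.87), which includes 1, and the share was lower in DG in section 2. Dock10 and Pdzd2 had UMIs in DG only (7 and 6), C1ql3 and Calb1 in CA1 only (2 each). Of the CA1 markers, 7 of 10 were, with 8 UMIs in DG and 14 in CA1, a ratio of summed shares of 0.338 (95% interval 0.123 to 0.863). Both lists overlapped between areas over the 3 libraries. Markers of other cells were present in both areas. The 8 of 10 oligodendrocyte markers took between 0.503% and 0.811% of the UMIs in DG and between 0.668% and 1.02% in CA1, lower in DG in 3 of 3 sections, and the 8 of 10 astrocyte markers between 0.339% and 0.556% and between 0.417% and 0.534%. Interneuron markers (5 of 8) held 12 UMIs in DG and 7 in CA1, microglia markers (3 of 9) 2 and 2, with Csf1r and Tmem119 not among the genes analysed, and endothelial markers (3 of 7) 6 and 4. The ratios of summed shares of these lists were 1.01, 0.591 and 0.887, each with an interval that includes 1. Nuclear noncoding and ribosomal RNA, led by Malat1, took 7.06% ± 1.53 (SD, n = 3) of the UMIs in DG and 9.14% ± 1.53 in CA1. That list was lower in DG in 3 of 3 sections, with a ratio of summed shares of 0.735 (0.686 to 0.788) and overlapping ranges. In such bulk libraries fewer cells of a type and less RNA per cell cannot be told apart, and the part of the other cell types in the values below was not tested.

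Together the 40 channel genes took just under 1 in 100 UMIs in both areas, and the share was nearly the same in DG and CA1. From section 1 to section 3, DG libraries counted 163, 41 and 60 UMIs of these genes, or 0.906%, 0.897% and 0.953% of their UMIs. The CA1 libraries held 81, 25 and 43, or 0.866%, 0.879% and 0.884%. The DG share was the higher in 3 of 3 sections and the ranges did not overlap, but the gap was small beside the counting error of a single library, which was between 0.071 and 0.176 percentage points. The mean share was 0.918% ± 0.030 (SD, n = 3) in DG and 0.876% ± 0.009 in CA1, a log2 ratio of 0.068, with an SD of 0.040 over the ratios of the 3 sections. Summed over sections, the ratio of DG to CA1 was 1.05 with a 95% counting interval of 0.854 to 1.29, an interval that includes 1. No p was computed for the sum. Without the DG library of section 3 the log2 ratio was 0.041, and with library sizes scaled by TMM it was 0.18. With nuclear noncoding and ribosomal RNA left out of the library totals it was 0.035. Without Scn8a, Ryr2 and Scn2a1, the 3 best measured genes, it was 0.087, and the ranges then overlapped.

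**Figure D1:**
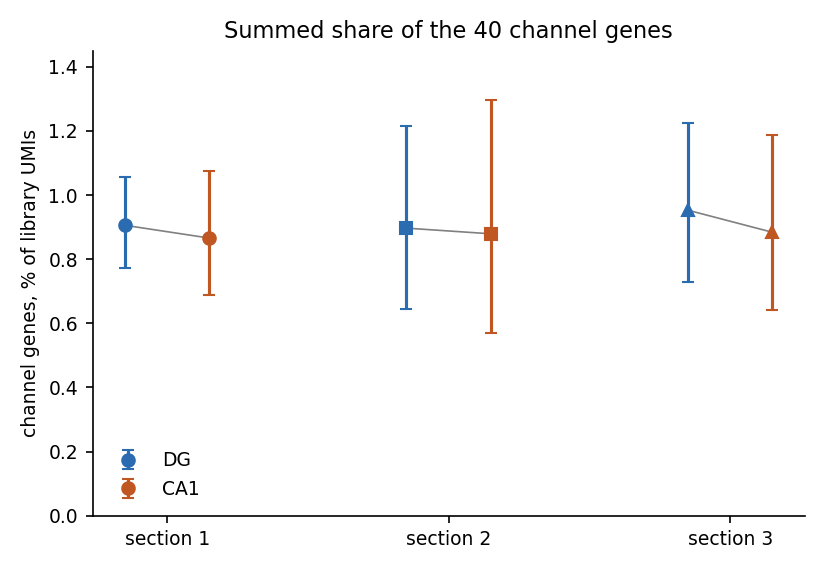
Share of library UMIs taken by the 40 channel genes together, in percent, in DG and CA1 libraries of each section, with exact 95% binomial intervals as bars and a grey line joining the libraries of a section. The DG point lies above the CA1 point in 3 of 3 sections, and the intervals overlap in each section.

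Within this nearly equal sum, the mean share of sodium channel genes was higher in DG and that of calcium channel genes higher in CA1, in both cases with overlapping ranges. The 11 sodium channel genes took 0.317%, 0.503% and 0.429% of the UMIs in the DG of sections 1 to 3 and 0.363%, 0.141% and 0.349% in CA1. They were higher in DG in sections 2 and 3 and lower in section 1, and the ratio of summed shares was 1.15 (0.823 to 1.62). The 15 voltage-gated calcium channel genes took 0.244%, 0.219% and 0.302% in DG and 0.278%, 0.457% and 0.370% in CA1. The DG was lower in 3 of 3 sections, with ratios of 0.880, 0.478 and 0.815, yet the ranges overlapped and the ratio of summed shares was 0.757 (0.528 to 1.09). The 4 calcium release channel genes took 0.186% ± 0.066 in DG and 0.176% ± 0.061 in CA1 (SD, n = 3), and the 9 genes with TRP symbols 0.054% ± 0.029 and 0.047% ± 0.034. By the role of the subunit, the 13 pore-forming genes of the Scn alpha and Cacna1 groups held 50.4% of the channel UMIs of DG and 52.3% of those of CA1, and the 13 auxiliary genes 17.8% and 22.8%.

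**Figure D2:**
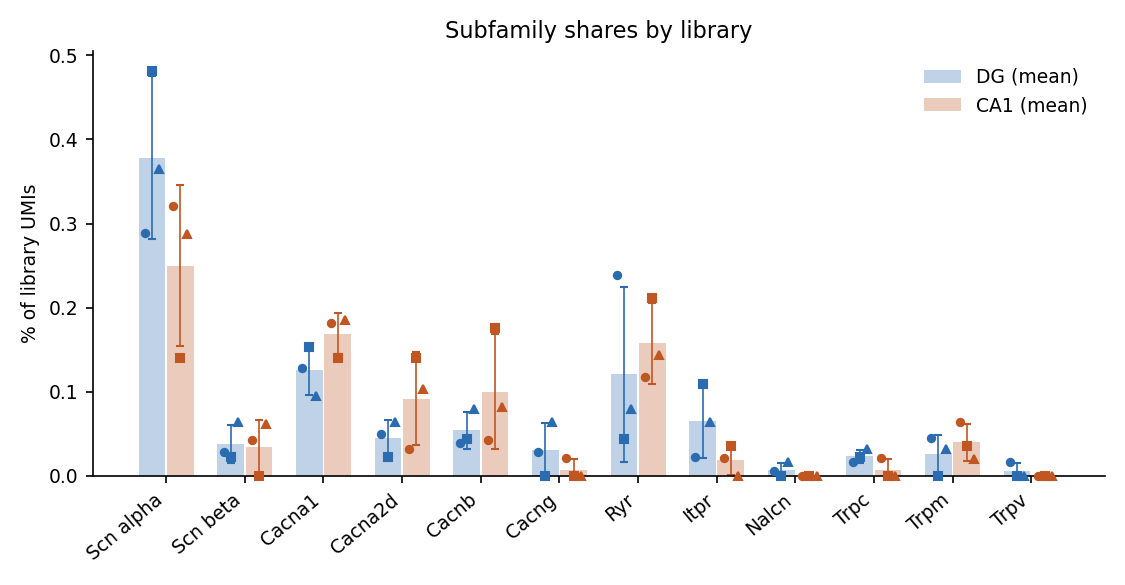
Share of library UMIs in percent for each of the 12 subfamilies, with bars for the mean of 3 libraries of an area, error lines for the SD and points for sections 1 (circle), 2 (square) and 3 (triangle). The Scn alpha group is the largest in both areas at a mean of 0.378% in DG and 0.250% in CA1, and in every subfamily the points of the areas overlap or tie.

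No channel gene passed a test of the difference between the areas, and without pairing by section no other gene did. edgeR's quasi-likelihood test after filterByExpr called 0 of 43 genes (0% of those tested) at a Benjamini-Hochberg adjusted p under 0.05, with 3 below 0.05 before adjustment, and DESeq2 found 0 by either measure. Only Scn8a of the channel genes passed that filter. With every gene of at least 10 summed UMIs tested, edgeR called 0 of 999 (0%), with 52 (5.21%) below 0.05 before adjustment. DESeq2 on the same genes called 0, with 17 below 0.05 before adjustment. Of the 13 channel genes in that fit, 0 were called and 1, Cacna1a, had an unadjusted p under 0.05 in edgeR. With section as a block, Cacna1a lost that and 0 of the 13 had one. The fitted log2 fold changes of DG over CA1 lay above 0 for 8 of the 13 and below 0 for 5, with a median of 0.25 against 0.08 over all 999 genes. With section as a block, since both libraries of a section share its tissue, edgeR called 1 of the 999, Prkce, which is no channel gene. The count of called channel genes was 0 in every alternative fit that tested any. With 3 libraries against 3, the exact two-sided permutation test cannot give a p below 0.1.

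Sodium channel alpha subunits were the best measured of all groups, with 145 of the 413 channel UMIs. Scn8a, the main alpha subunit of mature axon initial segments and nodes of Ranvier, was the most counted channel gene and ranked 48 among the 7507 genes. It had 21, 9 and 12 UMIs in the DG of sections 1 to 3 and 18, 3 and 7 in CA1, or 1167, 1969 and 1905 CPM (UMIs scaled to a library total of 1000000) against 1924, 1055 and 1439. The DG was lower in section 1 and higher in sections 2 and 3, and the areas overlapped throughout. The mean was 1680 CPM ± 446 in DG and 1472 CPM ± 435 in CA1 (SD, n = 3), and edgeR gave a log2 fold change of 0.03 (SE 0.39, adjusted p = 0.969), a sign that other filters and size factors turned. For Scn8a the DG to CA1 ratio of summed shares, 0.887, had an interval of 0.537 to 1.49. That interval covers counting error only, and the log2 ratios of Scn8a in the 3 sections had an SD of 0.83.

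Scn2a1 (Scn2a in RefSeq), an alpha subunit of excitatory neurons and their axons, was likewise lower in DG in section 1 and higher in sections 2 and 3. It had 16, 4 and 4 UMIs in DG and 9, 1 and 3 in CA1, and 800 CPM ± 143 against 643 CPM ± 306. Its ratio of summed shares was 1.09 (0.534 to 2.33) and its log2 fold change 0.19 (SE 0.61) by edgeR with an adjusted p of 1.00. Neither gene separated the areas. Scn1a and Scn3a, by contrast, had higher DG values in 3 of 3 sections. Scn1a, an alpha subunit best known from inhibitory interneurons, had 9, 1 and 3 UMIs in DG and 1, 0 and 1 in CA1. Its DG values of 500, 219 and 476 CPM all lay above its CA1 values of 107, 0 and 206 CPM, the lowest DG value by the worth of less than a single UMI. The ratio of summed shares was 3.84 (0.870 to 35.1), edgeR gave a log2 fold change of 1.81 (SE 1.09, adjusted p = 0.988) and the exact permutation test p = 0.1, the smallest possible. Scn3a, an alpha subunit most abundant in the developing brain, had 6, 7 and 3 UMIs in DG and 1, 0 and 2 in CA1. The DG was higher in 3 of 3 sections, but its lowest value, 333 CPM, was under the highest of CA1, 411 CPM. For Scn3a the ratio was 3.15 (0.902 to 16.9) and the edgeR log2 fold change 1.76 (SE 0.93, adjusted p = 0.880). The other 3 alpha subunit genes had 1 or 2 UMIs each. As a group, the alpha subunits were at 0.289%, 0.481% and 0.365% of the UMIs in DG and at 0.321%, 0.141% and 0.288% in CA1, a log2 ratio of 0.60 that fell to 0.10 without section 2 and to 0.32 without the CA1 library of section 2.

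The beta subunits of sodium channels, small membrane proteins that also act in cell adhesion, were sparse, with 10 UMIs in DG and 7 in CA1. Scn2b made up most of them, with 3, 1 and 3 UMIs in DG and 2, 0 and 1 in CA1. No order of the areas can be read from such counts.

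Among the pore-forming calcium channel subunits, Cacna1d had the most UMIs, and of those with at least 10 UMIs Cacna1a differed most between the areas. Cacna1d, an L-type subunit that opens at fairly low voltage, had 10, 3 and 2 UMIs in DG and 5, 0 and 2 in CA1, with overlapping ranges and a ratio of 1.27 (0.486 to 3.67). Cacna1b, the N-type subunit of transmitter release, had 7, 3 and 1 against 2, 1 and 1, a ratio of 1.63 (0.482 to 7.0). Both had the higher mean in DG. Cacna1a, the P/Q-type subunit, which drives release at most central synapses, had the higher mean in CA1. It had 1, 1 and 2 UMIs in DG and 5, 2 and 3 in CA1, although the DG libraries were the deeper ones, and so 55.6, 219 and 318 CPM against 534, 703 and 617 CPM. Every CA1 value was above every DG value. The mean was 197 CPM ± 132 in DG and 618 CPM ± 84.4 in CA1 (SD, n = 3). For Cacna1a the ratio of summed shares was 0.236 with an interval of 0.054 to 0.820, which leaves out 1 for counting error alone. edgeR gave a log2 fold change of -1.85 (SE 0.94, adjusted p = 0.880), so the difference did not pass that test. The exact permutation test, which does not pair libraries by section, gave p = 0.1. That is the smallest p it can give, so it decides nothing here. RefSeq places noncoding genes on the strand opposite to Cacna1a, as it does another gene opposite to Cacna1d, and the counting ignored strand. Where the annotation used for counting holds both genes, reads in their overlap are left unassigned at default options. Where it lacks the partner, its reads there cannot be told apart from those of the channel gene. Which case applies was not checked. The remaining 3 genes of the group had between 3 and 8 UMIs. The 6 genes together took 0.125% ± 0.029 in DG and 0.169% ± 0.025 in CA1 (SD, n = 3), a log2 ratio of -0.43. It was -0.20 without section 3, -0.27 without the DG library of section 3, -0.72 without section 2 and -0.89 without Cacna1d.

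The frequency of non-overlapping ranges can be set beside that of the whole table. Of the 13 channel genes with at least 10 UMIs, 1 (Scn1a) had its 3 DG values above its 3 CA1 values, against 71 of 999 genes (7.11%), and 1 (Cacna1a) had them below, against 51 of 999 (5.11%). The DG was higher in 3 of 3 sections for 3 of the 13 (Scn1a, Scn3a and Itpr1), against 13.8% of the 999, and lower in 3 of 3 for 2 (Cacna1a and Cacnb4), against 11.8%.

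**Figure D3:**
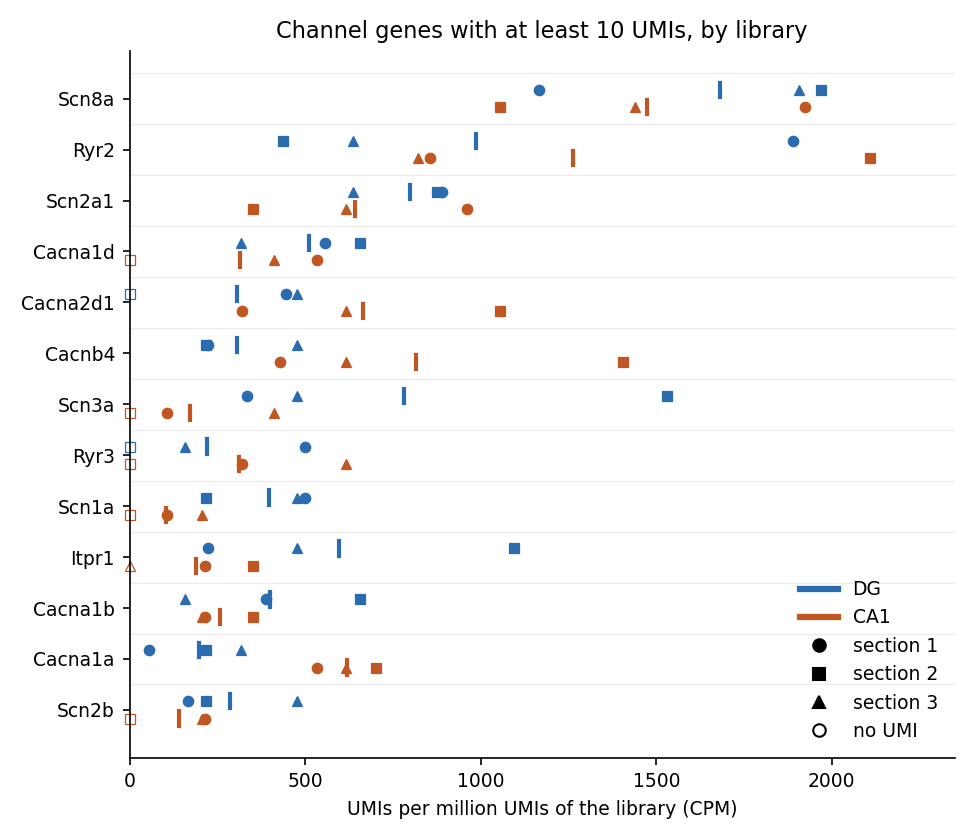
Level of each of the 13 channel genes with at least 10 UMIs in each library, in CPM, with DG in blue and CA1 in orange, marker shapes for sections, open markers for libraries without a UMI of the gene and short vertical lines for the means of the areas. Scn8a lies between 1055 and 1969 CPM in all 6 libraries, and only Scn1a and Cacna1a have no overlap between the areas.

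The alpha2delta and beta subunits of calcium channels had the higher mean share in CA1, the gamma subunits in DG, and none separated the areas as a group. Cacna2d1, an extracellular alpha2delta subunit and a target of gabapentin, had 8, 0 and 3 UMIs in DG and 3, 3 and 3 in CA1, a ratio of 0.723 (0.272 to 1.97). Cacna2d3 of the same group had 2 and 3 UMIs in the 2 areas. Cacnb4, a cytoplasmic beta subunit that carries channels to the membrane, had 4, 1 and 3 UMIs in DG and 4, 4 and 3 in CA1, and its CPM of 222, 219 and 476 were below the 427, 1406 and 617 of CA1 in 3 of 3 sections. Cacnb4 had a ratio of 0.430 (0.150 to 1.17) and an edgeR log2 fold change of -1.13 (SE 0.80) with an adjusted p of 1.00, and it too has a gene model on the opposite strand. The beta subunits together were lower in DG in 3 of 3 sections, at a log2 ratio of -0.89. The value was -0.21 without the CA1 library of section 2, -0.079 without section 2 and 0.34 without Cacnb4. Cacnb3 had 1, 1 and 2 UMIs in DG and none in CA1, and Cacnb2 had 2 in each area. Cacng2 (stargazin), which is better known as an auxiliary subunit of AMPA receptors, had 5, 0 and 3 UMIs in DG and none in CA1. Its DG share was 1.58 times that of the 3 UMIs that a count of 0 allows over the CA1 libraries. That value is no lower limit, as it leaves out the counting error of the 8 DG UMIs. With that error included, the exact 95% interval of the Cacng2 ratio began at 1.01. The exact permutation test gave p = 0.4, and edgeR without a filter on low counts an adjusted p of 0.663. The DG library of section 2 was also at 0, and a gene on the opposite strand overlaps Cacng2. Cacng3 had 1 UMI in each area.

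Of the release channels, Ryr2 was counted nearly as often as Scn8a, but its level varied more between sections than between areas. Ryr2, the ryanodine receptor of heart and most brain neurons, had 34, 2 and 4 UMIs in DG and 8, 6 and 4 in CA1, which on the CPM scale spans 437 to 1889 in DG and 822 to 2110 in CA1. The DG library of section 1 alone held 34 of the 40 DG UMIs. The section 1 ratio of both Ryr genes was 2.03 (1.03 to 4.37) and the section 2 ratio 0.207 (0.021 to 1.16), so the sections pointed in opposite directions. The mean over libraries was lower in DG (987 CPM ± 787 against 1262 CPM ± 734, SD, n = 3), whereas the ratio of summed shares of Ryr2 was 1.31 (0.736 to 2.43) and the edgeR log2 fold change 0.25 (SE 0.48) with an adjusted p of 1.00. For both Ryr genes the log2 ratio of mean shares was -0.38, and it was -1.53 without section 1 and 0.28 without section 2. Ryr3 had 9, 0 and 1 UMIs in DG and 3, 0 and 3 in CA1. Itpr1, the main inositol trisphosphate receptor of brain neurons, was higher in DG in 3 of 3 sections, with 4, 5 and 3 UMIs against 2, 1 and 0. In section 1 its levels were almost equal, at 222 and 214 CPM. Itpr1 had a ratio of 2.36 (0.638 to 13.1) and an edgeR log2 fold change of 1.35 (SE 0.99) with an adjusted p of 1.00, and a noncoding gene lies opposite to it. Itpr2 had 1 UMI in all.

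TRP channels and Nalcn, which carry slow or background cation currents, were near the limit of detection. Trpm7, a channel joined to a kinase, had 5 UMIs in DG and 2 in CA1. Trpm2, a channel opened under oxidative stress, and Trpm3 each had 2 and 3. Trpc6, a receptor-operated channel, and Trpv2 each had 3 UMIs in DG and none in CA1, Trpc4 and Trpc5 1 in each area, and Nalcn 2 in DG and none in CA1. A single UMI was counted for 8 of the 40 genes. In all, 11 of the 40 genes had UMIs in DG only, 26 UMIs together, and 2 in CA1 only, with 1 UMI each. The matching share over all genes analysed was not computed, so these counts cannot be read as a trait of the channel genes. The DG libraries held 28869 UMIs and the CA1 libraries 17066, and apart from Cacng2 none of the 11 exceeded, as a share, what a count of 0 in CA1 allows.

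**Figure D4:**
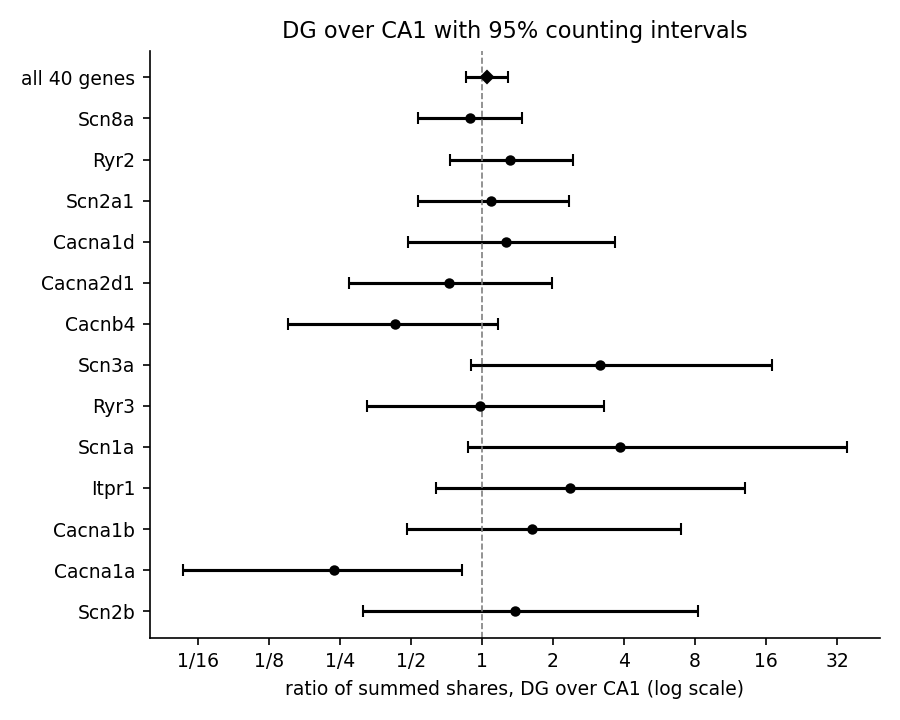
Ratio of the summed share in DG to that in CA1 for all 40 channel genes (diamond) and for the 13 with at least 10 UMIs (circles), on a log scale, with exact conditional 95% counting intervals. The interval of Cacna1a, 0.054 to 0.820, is the only one among these that lies on 1 side of the dashed line at 1, and these intervals leave out the spread between sections.

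The channel genes shared features that are described here and are not a separate result, since the choice by symbol groups related genes. They were long, with a median gene length of 150.9 kb against 29.6 kb over the 7483 genes matched to RefSeq, and 27 (67.5%) exceeded 100 kb against 19.0%. Their exons summed to a median of 8.67 kb against 4.30 kb. No share over all genes was computed for the coding class or the chromosome. All 40 were protein coding, and 11 lay on chromosome 2, among them Scn1a, Scn2a1, Scn3a, Scn7a and Scn9a. They were also better measured than most genes, with at least 10 UMIs in 13 (32.5%) against 13.3% of all genes and a UMI in every library for 6 (15.0%) against 5.25%, although the medians, 4 and 3 UMIs, were close. Divided by exon length, the gap to other genes was small, at a median of 0.722 UMIs per kb against 0.633. Among genes with at least 10 UMIs it went the other way, at 1.72 for the 13 channel genes against 2.85 for 994 genes. The order of the genes by level also shifted on that scale. Scn8a remained at the top with 5.16 UMIs per kb of exon, followed by Scn2a1 with 4.04 and Ryr2 with 3.41. Scn2b, with only 10 UMIs, stood at 2.13, Cacna2d1 and Cacnb4 both at 1.73 and Scn1a at 1.72. Scn3a, which had more UMIs than Scn1a, stood at 0.938. Exon length here is the union over all RefSeq transcripts of a gene, 20.3 kb for Scn3a and 8.71 kb for Scn1a. The single transcripts compared above were 9707 and 8320 bases, so the low place of Scn3a rests on the union. Reverse transcription was primed on the poly-A tail and the files do not say where in a transcript reads lie, so a level per exon length is an approximation.

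**Figure D5:**
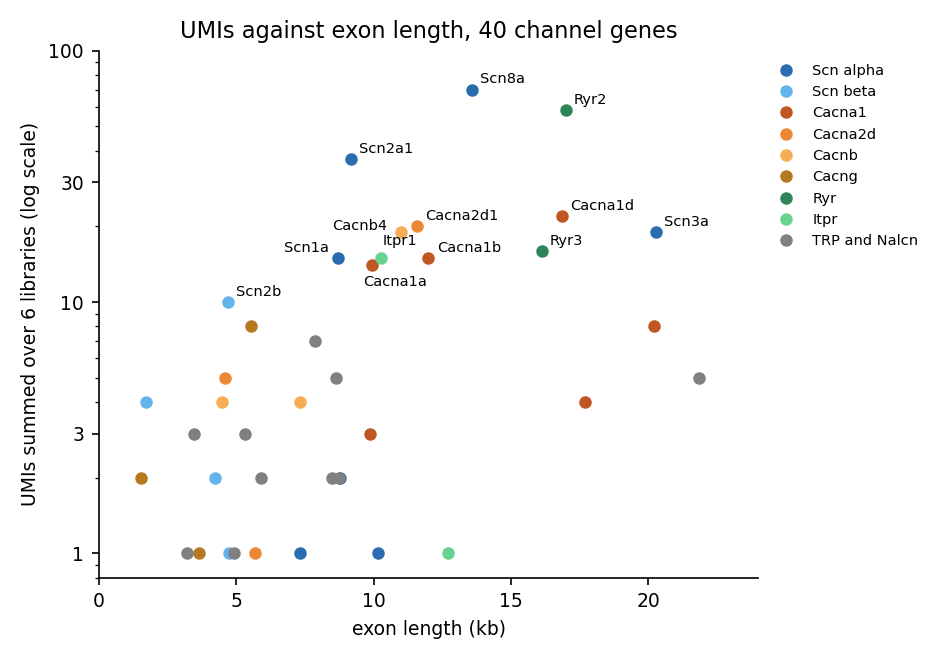
UMIs summed over the 6 libraries (log scale) against summed exon length in kb for the 40 channel genes, coloured by subfamily, with the 13 genes of at least 10 UMIs named. Scn8a and Scn2a1 stand above genes of similar exon length. Scn3a and Ryr3 have a long exon length for their counts, where exon length is the union over all RefSeq transcripts.

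Genes that work beside the channels were taken as 7 lists of anchoring proteins, pumps, exchangers and scaffolds. None of them was called by edgeR, in which 20 had at least 10 UMIs, 10 with a log2 fold change above 0 and 10 below. Ank3, the ankyrin that anchors sodium channels at the axon initial segment, had 129 UMIs, more than any channel gene, with 52, 15 and 22 in DG and 14, 11 and 15 in CA1 and a log2 fold change of 0.41 (SE 0.34). Together with the other 6 of 9 sodium channel partners measured, it took 0.528% ± 0.055 in DG and 0.456% ± 0.178 in CA1 (SD, n = 3). Atp2b1, a calcium pump of the plasma membrane, led the calcium pumps and exchangers (10 of 12 measured), with 71 UMIs in DG and 55 in CA1. As the DG libraries were deeper, its ratio of summed shares was 0.763 (0.529 to 1.11). The list took 0.577% ± 0.074 in DG and 0.604% ± 0.079 in CA1. The sodium pump genes (6 of 6) held 77 UMIs in DG and 42 in CA1, a ratio of summed shares of 1.08 (0.735 to 1.62). Unc80, a subunit of the Nalcn complex (3 of 3 partner genes measured), had 37 and 13 of the 45 and 22 UMIs of that list, where Nalcn itself had 2 and none. The ratio of summed shares was 1.68 (0.874 to 3.45) for Unc80 and 1.21 (0.711 to 2.11) for the list. Jph4, which holds the endoplasmic reticulum to the plasma membrane, led the store-operated entry and junction genes (8 of 11, with 42 and 23 UMIs) at 15 and 7, and Homer1 had as many in all. That list had a ratio of summed shares of 1.08 (0.635 to 1.88). Rims2 led the presynaptic scaffold list (6 of 6, with 19 and 14 UMIs) at 7 and 9. That list was lower in DG in 3 of 3 sections, with 0 against 2 UMIs in section 3. Its ratio of summed shares, 0.802, had an interval of 0.381 to 1.73, which includes 1. The list of mitochondrial uniporter genes and the exchanger Slc8b1 (6 of 7) held 16 UMIs in DG and 2 in CA1. Slc8b1 had the most with 8, and each member had under 10. The share of the list was higher in each DG library than in any CA1 library, at a ratio of summed shares of 4.73 (1.11 to 42.4). No other of the 7 lists had such ranges. In the DG library of section 1, Slc8b1 alone held 7 of the 10 UMIs of the list, and the list without it was not tested. Of all single genes with at least 10 UMIs, 7.11% had such ranges, but that share is not for sums of sparser genes.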

How the data were processed

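BALI-Multiome RNA of DG and CA1 was analysed in 3 sections (6 libraries). The authors extracted 6-base UMIs, split reads by barcode (cutadapt 4.1), mapped read 1 to mm10 (STAR 2.7.9a), assigned genes with featureCounts (Subread 2.0.3, default options, strand ignored) and obtained UMI counts with umi_tools. The deposited counts hold 1 added to every value, which the design had not foreseen. It was subtracted here, and the counts as deposited were kept as an alternative. The authors' CPM, mean, fold and log10 ratio columns and the column totals were not used, nor was the chromatin part.

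Shares and CPM were computed over the UMIs of a library. Intervals are exact (Clopper-Pearson, or conditional binomial for ratios). DG and CA1 were compared across all genes by edgeR 4.0.16 (quasi-likelihood, TMM, filterByExpr with minimum count 10, no block, as the study averages replicates) under R 4.3.3, with DESeq2 1.42.0 as an alternative, adjusted over all genes tested, and tested on simulated data. Single genes were compared by exact permutation of log2(CPM + 1) in scipy 1.17.1. The 2 libraries of a section share its tissue and so pair. Their deviations from the area means, in log2 CPM of the counts as deposited, correlated at 0.205, 0.133 and 0.0851. The added 1 of every gene made up 29.4% to 72.5% of those library totals, and section 2 was the shallowest in both areas. Depth and shared tissue cannot be told apart in these correlations, so they are no test of the pairing. Genes named were those passing filterByExpr, the 12 with most UMIs, the 2 with most in each subfamily (ties kept) and the leader of each partner list, and Homer1 ties with its leader. Some of these are not reported here. Further genes named were chosen after their values were seen. Members and lists were chosen with earlier results of these data known. All 40 symbols matched RefSeq.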

Additional observations from a re-analysis of the deposited data

How the results depend on the processing

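The log2 ratio of the summed channel share, 0.068, stayed above 0 under the 17 alternatives run, between 0.035 and 0.18. It moved beyond the spread of the sections after thinning to the smallest library (0.13), with counts as deposited (0.12) and with TMM scaling (0.18), and leaving out a section or library gave 0.041 to 0.087. With sections as a block, as their pairing asks, it was 0.067. The number of genes called, 0, became 1 (Prkce, no channel gene) with the block and at least 10 UMIs, and 1 again with the block and no filter. The last fit, the block with at least 30 UMIs and DESeq2 with at least 10 UMIs were chosen after seeing the data. The number of channel genes called was 0 in all fits that tested any.

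Subfamily ratios of Cacna1, Cacna2d, Trpm, Scn alpha, Itpr and Trpc kept their sign under the alternatives that gave a value. Cacnb turned to 0.34 without Cacnb4, Cacng to -0.43 without Cacng2, Ryr in 4 of 17 (0.30 with pooled UMIs), and Scn beta changed sign in 6 of 16.

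The Scn8a log2 fold change of 0.03 turned to -0.085 with DESeq2 size factors, -0.084 with total UMIs, -0.0064 and -0.118 at 10 and 30 UMIs, -0.018 with the block, -0.091 and -0.188 with the block at 10 and 30 UMIs, -0.059 with counts as deposited, -0.263 and -0.217 without sections 2 and 3, -0.072 without the DG of section 2, and -0.098 and -0.047 without the CA1 of sections 2 and 3. The Ryr3 value turned from -0.06 to 0.10 without a filter, and to 0.065 with the block as well. The causes were not tested. Over the 13 genes, the sign held in 54 of 69 alternative fold changes, and 0 had an adjusted p under 0.05. Depth limits the rest: 27 of the 40 genes had under 10 UMIs.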
